A study of Mus musculus with 4 samples.

Results

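MK cells of clones that were also met in the Diff_MK sample were compared with MK cells of clones that were not. Cells with the same leading tag were taken as 1 clone. A tag led a cell where it had at least 3 counts in the cell and 2 or more times the counts of the runner-up. Of 4560 MK cells with such a tag, 2250 belonged to 81 clones whose tag also led at least 1 Diff_MK cell, here called found clones. Another 1909 cells belonged to 417 clones of 2 or more cells whose tag led no Diff_MK cell, here called not found clones. The remaining 401 assigned cells were single-cell clones that were not found and were left out of the comparison, while 8 of the found clones also held 1 MK cell and stayed in. Before assignment, 7175 of 7780 MK cells had 1000 detected genes or more and no more than 15% of mitochondrial UMIs (unique molecular identifiers, the molecules counted per gene).

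MK is a mouse keratinocyte line grown in E low medium with serum, and keratinocytes are the cells that build the epidermis. Each of the 4 samples, an RNA library and a tag library for MK and the same pair for Diff_MK, carries the treatment label Dox and the source label MK. The labels do not say what Diff stands for or how the Diff_MK cells were handled differently, so the groups are named as labelled. They also do not say whether both samples came from 1 tagged culture, so a found clone means a matching tag, and shared descent was not tested. All cells were sorted for GFP before capture, and the samples come from 1 line with 1 library of each kind. Cells and clones of 1 culture are not replicates, so no test between found and not found clones was possible. Intervals given after a ratio or a share are at the 95% level and cover counting error only.

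Lineage tags are short DNA sequences that are fixed in a cell's genome and copied at each division, so that daughters share their mother's tag. In the tags of this study the variable part is a junction between fixed stretches, with bases lost from either end and often new bases added between them. Basal keratinocytes divide and express Krt5, Krt14 and Trp63, and their daughters switch to spinous genes such as Krt10 and then to cornified envelope genes such as Lor and the Sprr family as they mature.

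The tags that label the largest clones show what was compared. The left fixed stretch read from the MK tag list was 43 bases and the right stretch 26 bases long. Capitals mark the bases inserted between them, and a tag without capitals has none. The first 4 tags below belong to found clones and were chosen as the 3 largest and a large clone with a short tag, the next 2 lead the largest not found clones, and the last is a not found tag with a long insert.
left stretch: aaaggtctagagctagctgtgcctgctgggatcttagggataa
right stretch: ttatccctaatagctcaggttttacc
Tag1: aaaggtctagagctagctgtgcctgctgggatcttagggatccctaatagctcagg
Tag2: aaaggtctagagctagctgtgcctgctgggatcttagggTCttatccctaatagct
Tag3: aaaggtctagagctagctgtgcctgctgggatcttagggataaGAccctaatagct
Tag50: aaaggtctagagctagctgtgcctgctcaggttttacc
Tag32: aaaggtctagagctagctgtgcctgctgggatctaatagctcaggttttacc
Tag26: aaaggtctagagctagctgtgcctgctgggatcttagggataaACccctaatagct
Tag256: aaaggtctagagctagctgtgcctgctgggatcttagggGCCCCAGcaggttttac
Tag1 led 280 MK and 539 Diff_MK cells, Tag2 led 137 and 346, Tag3 led 110 and 196, and Tag50 led 31 and 136. Tag32 led 41 MK cells, Tag26 34 and Tag256 3, and none of these 3 led a Diff_MK cell.

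Tags were matched between the libraries from their first base over the shorter of both lengths. This gave 81 pairs, of which 73 were identical in full. The partners of Tag2 to Tag6, which lead 5 of the 6 largest MK clones, were listed in Diff_MK at 48 to 51 bases against 56 in MK. A cut at 49 bases leaves 6 bases after the left stretch of Tag3, and the Diff_MK partner of Tag3 also matched Tag711, a single MK cell. Under full identity alone 73 clones with 1722 MK cells were found. The number of Diff_MK cells behind a match ranged from 1 to 539 with a median of 21. Of the found clones, 7 rested on 1 Diff_MK cell, and 41 rested on 20 or more. In the other direction, 4141 of 4747 assigned Diff_MK cells (87.2%) fell in the found clones. The RNA libraries shared 14 cell barcodes, of which 9 were kept in both, and none of these 9 carried a matching leading tag in both.

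Found clones were larger than not found clones. They held 1 to 280 MK cells with a median of 14, and not found clones held 2 to 41 with a median of 3. The share of MK clones that were found was 1.96% (0.848 to 3.82%) of 409 clones of 1 cell and 3.81% (1.98 to 6.56%) of 315 clones of 2 to 4 cells. It was 15.8% (9.12 to 24.7%) of 95 clones of 5 to 9 cells and 38.2% (22.2 to 56.4%) of 34 clones of 10 to 19 cells. Of 46 clones of 20 or more cells, 33 were found, a share of 71.7% (56.5 to 84.0%). The intervals of neighbouring classes overlapped for the 2 smallest, for 5 to 9 against 10 to 19 cells only narrowly, and did not overlap for 2 to 4 against 5 to 9 cells or, by a small margin, for 10 to 19 against 20 or more. The sizes of the groups overlapped widely: 13 clones of 20 or more MK cells had no Diff_MK cell, and 5 found clones of that size had fewer than 5, among them Tag7 with 67 MK and 4 Diff_MK cells and Tag20 with 33 and 1. A clone can be found only if at least 1 of its Diff_MK cells was sampled, so ratios within size classes are given below where they change what a ratio over all cells shows. In clones of 2 to 4, 5 to 9 and 10 to 19 cells the found side held 33, 102 and 189 cells. The not found side held 783, 489 and 277. Clones of 20 or more held 1918 found and 360 not found cells. Ratios within classes are given without intervals and can rest on few UMIs. Of 75 named genes with a ratio within the bounds used below, 70 lay on the other side of 1 under at least 1 alternative, 43 of them in clones of 5 to 9 cells and 26 with clones weighted equally.

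**Figure D1:**
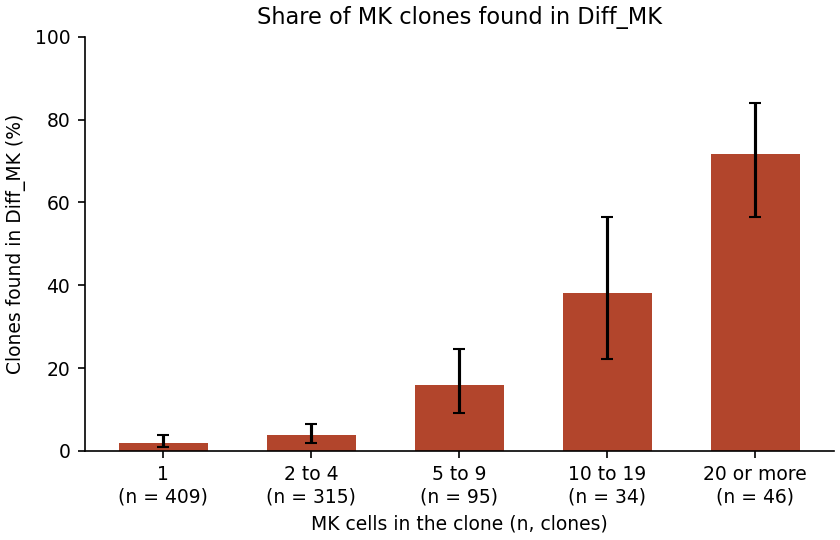
Share of MK clones found in Diff_MK (percent, bars) by the number of MK cells in the clone, with n the number of clones per class and lines the exact 95% intervals. The share stands at 1.96% for clones of 1 cell and 71.7% for clones of 20 or more.

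Over clones of all sizes, the readable junctions of found tags held fewer inserted bases. Of 80 found clones with a readable junction, 17 had no inserted base (21.3%, 12.9 to 31.8%), against 46 of 386 not found clones (11.9%, 8.86 to 15.6%). These shares leave out 1 found and 31 not found clones whose junction was not read. Tags that ran past the right stretch, such as not found Tag170 and found Tag214, were among the unread. In these 2 and in not found Tag186, Tag206 and Tag210 the left stretch runs into the right one with no inserted base. The share of 11.9% is thus too low for not found clones. By how much was not counted, so the gap between the shares is uncertain. The median number of inserted bases was 2 and 3. Inserts of 5 or more bases were read in 1 of 80 found tags (interval 0.0316 to 6.77%) and in 63 not found tags (16.3%, 12.8 to 20.4%). That found tag was Tag711, a single MK cell with 6 inserted bases. It was found only through the 49-base Diff_MK tag that also matched Tag3. Among clones of 20 or more cells the order of the medians was turned, at 2 inserted bases in found and 1 in not found tags, and 0 of 33 found and 0 of 13 not found tags had 5 or more inserted bases (upper limits 10.6% and 24.7%). At that size 11 of 33 found tags (33.3%) and 4 of 13 not found tags (30.8%) had no insert. Tag length was 56 bases, the longest listed, in 76 of 81 found and 398 of 417 not found clones.

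**Figure D2:**
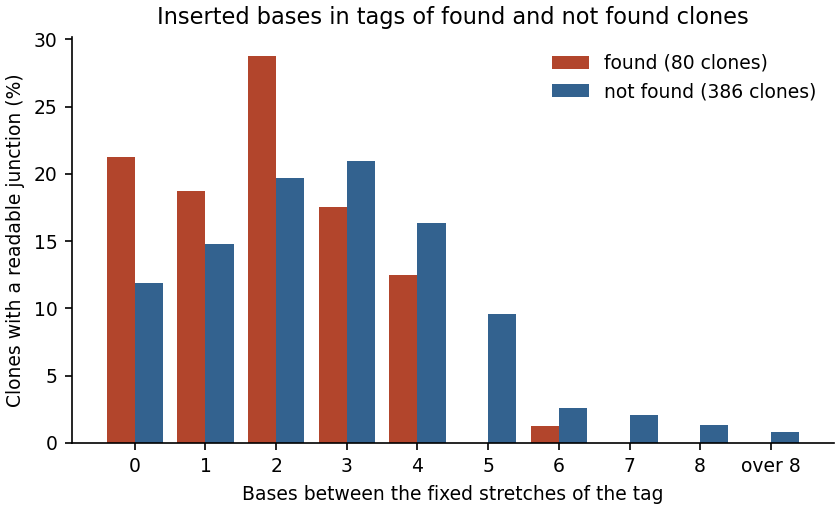
Share of clones (percent, bars) by the number of bases between the fixed stretches of their tag, for 80 found and 386 not found clones with a readable junction. Among these, found clones lie toward fewer inserted bases, and 1 of them has 5 or more. Clones with an unread junction, 1 found and 31 not found, are left out, among them clones whose tag has no inserted base.

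Cells of both groups were alike in depth and quality. Median UMIs per cell were 15466.5 in found and 15725 in not found clones, median genes 3858 and 3893, and median mitochondrial UMIs 5.32% and 5.32%. The leading tag had a median of 183 and 178 counts, which was 38.1% and 38.2% of a cell's tag counts. Cells whose leading tag had fewer than 10 counts were more frequent in found clones, at 7.51% (6.46 to 8.68%) against 2.51% (1.86 to 3.32%). Most of that gap lay in 2 clones, with 73 of 280 cells of Tag1 and 30 of 137 cells of Tag2 below 10 counts. With a minimum of 10 counts the numbers of genes past the bounds given below were 7 higher and 6 lower. The summed UMIs were 35264951 for found and 30145229 for not found clones.

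Both groups carried the keratinocyte label in their RNA. Krt5, Krt14, Krt6a, Sfn and Perp each had a UMI in over 98% of cells of either group. The ratio of CPM (UMIs of a gene per 1000000 UMIs of the group), found over not found, lay between 0.97 and 1.05 for all 10 keratinocyte markers. Markers of melanocytes, fibroblasts, endothelial, erythroid and immune cells were low in both. The 8 melanocyte markers summed to 2.38 and 2.29 CPM, the 8 fibroblast markers to 0.510 and 0.663 and the 7 endothelial markers to 1.81 and 1.76. The 6 erythroid markers summed to 1.42 and 2.12 CPM and the 9 immune markers to 5.33 and 6.27, nearly all of the latter from Cd68. The 12 hair follicle and sebaceous markers were higher, at 182 and 181 CPM. Most of that came from Plin2 (148 and 146 CPM) and Sox9 (24.6 and 26.2 CPM). Sox2, which also marks Merkel cells, stood at 13.8 and 15.96 CPM, and Krt20, another Merkel cell marker, at 4.93 and 5.37 CPM.

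Across all genes the groups differed little. Of 7552 genes that reached 10 CPM in either group, 99.9% were less than 25% higher and had a ratio over 0.8, and the 1st and the 99th percentile of the ratio were 0.873 and 1.14. Of the rest, 6 genes were 25% or more higher in found clones (0.0794%) and 5 had a ratio of at most 0.8 (0.0662%). Among these, Ccl2, Frs2, Ncoa1, Cnfn, Rnf152 and Gm49890 reached 10 CPM only in the group where they were higher. They entered the count through that side, so their calls are not independent of the minimum. The other genes past the bounds reached it in both groups. At 1.5-fold these counts were 1 (0.0132%) and 2 (0.0265%). Among clones of 20 or more cells, 33 found and 13 not found, no gene of the 7552 (0%) had clone levels that did not overlap between the groups.

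**Figure D3:**
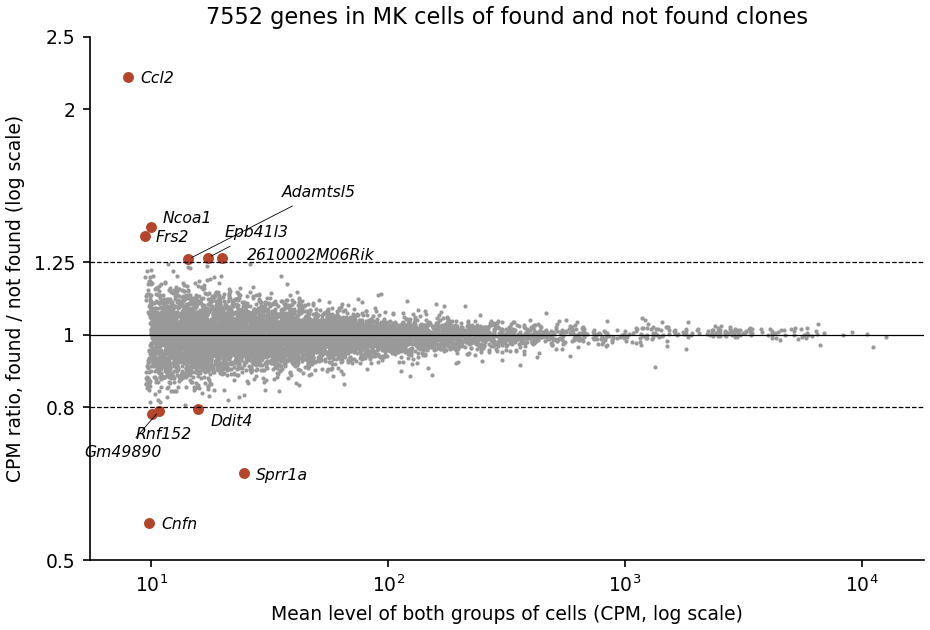
Ratio of CPM in MK cells of found over not found clones (vertical, log scale) against the mean level of both groups (CPM, log scale) for 7552 genes, with dashed lines at 25% above 1 and at 0.8 and coloured points for genes past them. The cloud narrows with level, and 6 genes lie above and 5 below the lines.

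Ccl2, a chemokine that attracts monocytes (ENSMUSG00000035385, GRCm38 11:82035571-82037453), had the highest ratio. Its level was 10.9 CPM in found and 4.94 CPM in not found clones, a ratio of 2.21 (1.82 to 2.69) from 385 and 149 UMIs. A single cell of the Tag2 clone held 223 of the 385 UMIs (57.9%). Without the cell with the most Ccl2 UMIs in each group the levels were 4.60 and 4.48 CPM, a ratio of 1.03. That cell had 17445 UMIs, 4399 genes, 8.86% mitochondrial UMIs and a leading tag of 7 counts. It also held 231 UMIs of the neutrophil chemokine Cxcl1, or 13242 CPM against 316.7 CPM over all found cells, and 32 UMIs of Cxcl2, 46.4% of those in found cells. Further genes far above the mean of found cells in it were Saa3 (an acute phase protein, 21 UMIs), Ccl20 (a chemokine, 14), the NF-kB feedback genes Tnfaip3 (24) and Nfkbiz (43), the stress factor Atf3 (22) and the EGF receptor ligand Ereg (54). These genes of 1 cell were picked after its values were seen. Over clones of 20 or more cells Ccl2 ranged from 0 through a median of 2.28 to 99.4 CPM in found and from 0 through 0 to 16.5 CPM in not found clones, so the ranges overlapped and the top value was the clone of that cell. Under a minimum of 10 tag counts, which leaves out this cell, the ratio was 0.906, and with tags identical in full, which moves its clone to the not found group, it was 0.465.

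Sprr1a and Cnfn, which belong to the cornified envelope program, had the lowest ratios. Sprr1a (ENSMUSG00000050359, GRCm38 3:92483952-92485895), a crosslinked envelope protein, stood at 19.4 CPM in found and 29.7 CPM in not found clones, a ratio of 0.653 (0.591 to 0.722). Cnfn (ENSMUSG00000063651, GRCm38 7:25367620-25369724), cornifelin, stood at 7.03 and 12.5 CPM, a ratio of 0.561 (0.476 to 0.660). Few cells held these transcripts. The 10 cells with the most Sprr1a held 54.4% of the UMIs of found and 73.7% of those of not found clones, and for Cnfn the shares were 68.5% and 85.4%. A single not found cell, from the 3-cell clone of Tag231, held 189 UMIs of Sprr1a (21.1%) and 65 of Cnfn (17.2%), together with 488 of the stress keratin Krt16 and 185 of Sprr2d, another envelope gene. Sprr genes are close copies of each other, so reads may be split among them. Without the top cell of each group the Sprr1a ratio was 0.748, while that of Cnfn was 0.548. For Cnfn these were a not found Tag85 cell with 66 UMIs and a found Tag1 cell with 48, so the Tag231 cell stayed in.

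The direction for both genes differed between size classes, at low levels in few cells. In clones of 20 or more cells the Sprr1a ratio was 4.54 (21.5 against 4.73 CPM) and the Cnfn ratio 2.21 (7.73 against 3.50 CPM). In clones of 10 to 19 cells they were 0.0661 (3.48 against 52.7 CPM) and 0.0807 (1.39 against 17.3 CPM). Single found cells of Tag30 and Tag1, both clones of 20 or more cells, held 66 Sprr1a and 48 Cnfn UMIs. These ratios carry no interval, and a link to clone size was not tested. Over clones of 20 or more cells Sprr1a ranged from 0 through 9.65 to 165 CPM in found and from 0 through 2.74 to 15.2 CPM in not found clones. The not found UMIs of these genes lay mainly in smaller clones, such as Tag85 with 9 cells, where Cnfn reached 453 CPM, and Tag363 with 5 cells, where Sprr1a reached 1036 CPM and Sprr2e 1323 CPM. With clones of 5 or more cells weighted equally the ratios were 0.471 and 0.382.

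The other genes past these bounds were spread over many cells. Ncoa1, a coactivator of nuclear receptors (GRCm38 12:4247362-4477182), stood at 11.5 CPM in found and 8.29 CPM in not found clones, a ratio of 1.39 (1.19 to 1.64). It was above 1 in all 4 size classes, at 1.31, 1.51, 1.78 and 1.27 from the smallest to the largest. After thinning each cell to 7500 UMIs, 8.29% of found cells (7.17 to 9.52%) and 5.68% of not found cells (4.67 to 6.83%) had an Ncoa1 UMI, and unthinned 16.4% and 12.2%. Frs2, an adaptor of FGF receptors (GRCm38 10:117069427-117148534), stood at 10.8 and 7.99 CPM, a ratio of 1.35 (1.15 to 1.599). Over clones of 20 or more cells Frs2 ran from 4.89 through 10.7 to 20.3 CPM in found and from 0 through 6.09 to 13.8 CPM in not found clones. Of the 33 found clones, 32 lay above the not found median, while the ranges still overlapped. With 382 found and 241 not found UMIs of Frs2 over all clones, single clones held few. How many of the 7552 genes had as many found clones above that median was not counted. Klf6 and Ninj1 also had 32 such clones, at ratios over all cells of 1.11 and 1.003. In clones of 2 to 4 cells the Frs2 ratio was 0.635. The cytoskeletal linker Epb41l3 (1.27, 1.12 to 1.43), Adamtsl5 (1.26, 1.11 to 1.44) and 2610002M06Rik (1.27, 1.13 to 1.42) completed the higher set. Epb41l3, like Ncoa1, was above 1 in every size class, and the other 2 were at 0.433 and 0.697 in clones of 2 to 4 cells.

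On the low side, Ddit4, a stress-induced inhibitor of mTORC1, stood at 14.0 and 17.5 CPM, a ratio of 0.795 (0.702 to 0.901), but at 1.42 in clones of 10 to 19 cells. Rnf152 (0.784, 0.671 to 0.917) and Gm49890 (0.791, 0.680 to 0.920) were each above 1 in 2 of the 4 size classes. None of the 5 lower genes was below 1 in all 4 size classes, and of the 6 higher genes 2 were above 1 in all 4. Small classes rest on few UMIs: in clones of 2 to 4 cells Frs2 and Adamtsl5 each stood at 5.40 CPM over 33 found cells. With clones weighted equally, 2 of the 5 lower genes, Sprr1a and Cnfn, were still past the bound, and Ddit4 (0.906), Rnf152 (0.870) and Gm49890 (0.856) were not. Adamtsl5 fell to a ratio of 1.22 without Tag1, its clone with the most UMIs. Apart from Ccl2, Sprr1a, Cnfn and Ddit4, the genes past the bounds lay outside the rule for named genes and were picked after their values were seen.

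Over all cells, 7 basal and cycle genes fixed in the naming rule had ratios between 0.97 and 1.05. Krt14 stood at 6618 CPM in found and 6409 CPM in not found clones (ratio 1.03, 1.03 to 1.04), and Krt5 at 1216 and 1153 CPM (1.05, 1.04 to 1.07). Over clones of 20 or more cells Krt14 ran from 4216 through 6539 to 8499 CPM in found and from 4391 through 5858 to 8102 CPM in not found clones, so the not found range lay inside the found one. Trp63, the master factor of stratified epithelia, was at 87.7 and 90.1 CPM (0.973, 0.924 to 1.03). The cycle marker Mki67 was at 133 and 132 CPM (1.01, 0.964 to 1.05), the topoisomerase Top2a at 392 and 396 CPM (0.989, 0.965 to 1.01) and the replication clamp Pcna at 254 and 249 CPM (1.02, 0.989 to 1.05). Cdkn1a, the p21 inhibitor of cyclin-dependent kinases, was at 164 and 160 CPM (1.03, 0.987 to 1.07). After thinning to 7500 UMIs, which left out 54 found and 59 not found cells, the median cell had 19 UMIs of G1/S genes and 30 of G2/M genes in both groups, and 2559 and 2563 genes detected. Top2a clones ran from 300 to 465 CPM in found and from 251 to 541 CPM in not found clones. The ratios were lower in clones of 5 to 9 cells, at 0.815 for Krt14, 0.852 for Krt5 and 0.844 for Top2a, and with clones weighted equally they were 0.952, 0.987 and 0.976.

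Krt15, a keratin known from the basal layer and the hair follicle bulge, was nearly silent in MK cells of either group. Found clones had 52 UMIs (1.47 CPM) and not found clones 29 (0.962 CPM), and the interval of the ratio, 0.955 to 2.504, held 1. One cell of Tag1 held 11 of the 52. In Diff_MK cells led by a tag of the found clones Krt15 stood at 654 CPM. Other genes with a wide gap between the libraries differed less between the MK groups. The galectin Lgals7 stood at 39.2 and 37.0 CPM in MK found and not found cells and at 829 CPM in Diff_MK cells with a matching tag. For Ly6d, a surface protein of stratified epithelia, the values were 249, 258 and 1192 CPM, for the simple epithelial keratin Krt19 264, 258 and 1200.03 CPM, and for Lcn2, an iron-siderophore binding protein, 38.6, 32.2 and 6.94 CPM. These 4 were picked from the named genes after their values were seen.

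Among genes of maturing keratinocytes, Krt10 was at 25.8 and 26.4 CPM (0.975, 0.886 to 1.07) and Ivl, involucrin, at 44.9 and 45.5 CPM (0.986, 0.916 to 1.06). Lor, loricrin, the main protein of the cornified envelope, was at 65.2 and 70.4 CPM over all cells (0.927, 0.873 to 0.984). Over clones of 20 or more cells it ran from 5.80 through 53.2 to 187 CPM in found and from 8.82 through 97.9 to 196 CPM in not found clones. In this size class 3 of 33 found clones lay above the not found median, and the pooled ratio was 0.769, against 2.24 in clones of 2 to 4 cells. Lcn2 ran from 0 through 27.0 to 214 CPM in found and from 0 through 7.03 to 218 CPM in not found clones, and 24 of 33 found clones lay above the not found median. Its ratio over all cells was 1.20, with 0.646 in clones of 2 to 4 cells and 3.06 in clones of 5 to 9. Lor and Lcn2 were both among the genes named for their clone medians. The share of all genes with such counts of found clones was not taken. Kif23 and Bcar3 also had 3 found clones above the not found median, at ratios over all cells of 0.946 and 0.991. Krt14 and Krt5 had 24, as Lcn2 did. Mt4, a metallothionein of stratified epithelium, reached 378 CPM in found Tag37, where 1 cell held 145 UMIs, and had a pooled ratio of 0.915 (0.832 to 1.01).

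**Figure D4:**
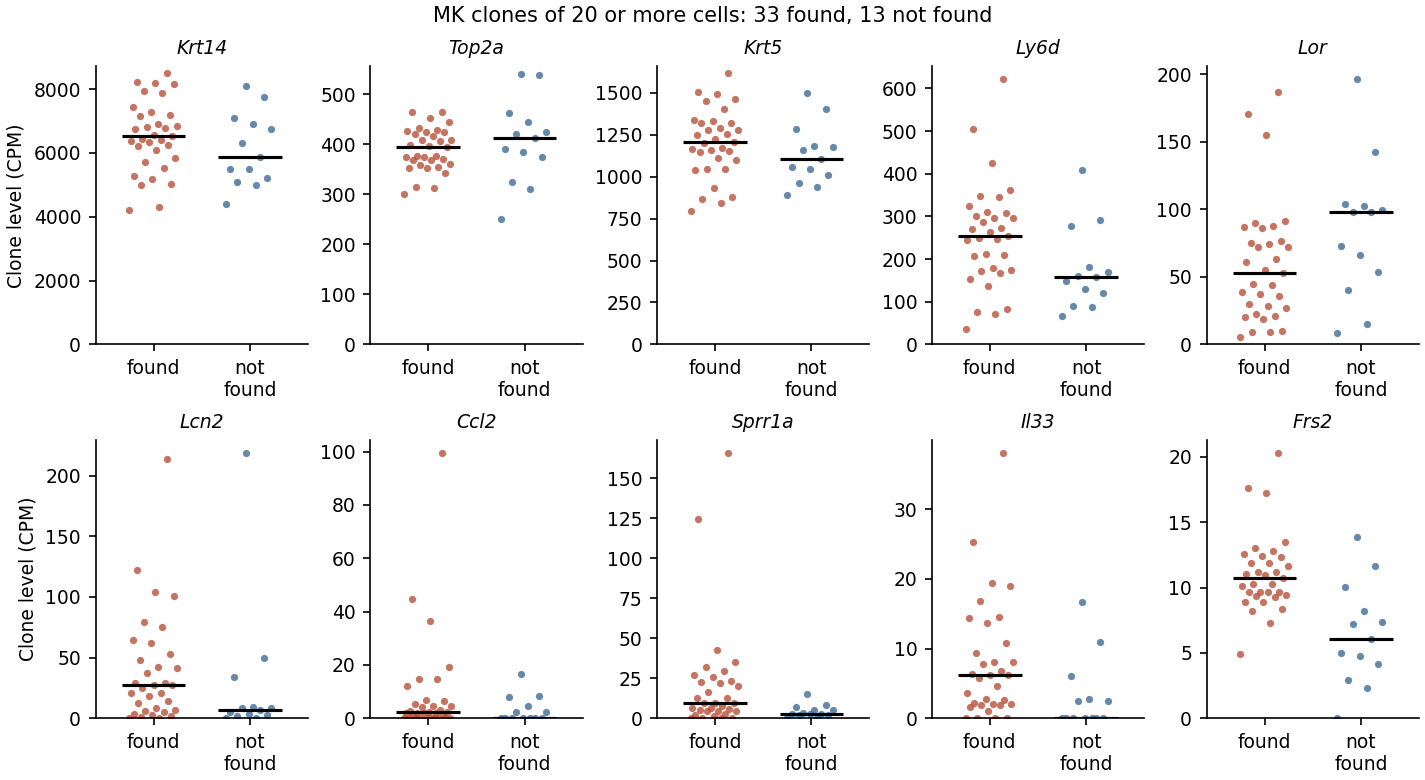
Level of 10 genes (CPM, each panel on its own scale from 0) in MK clones of 20 or more cells, with 1 point per clone for 33 found and 13 not found clones and a line at the median. The points of the groups overlap in every panel. The median of found clones is lower for Lor and Top2a and higher for the other genes shown, Sprr1a among them. For Ccl2 1 clone and for Sprr1a 2 stand far above the rest.

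Medians over clones were taken for genes at higher levels. Of 2894 genes at 50 CPM or more, 16 (0.553%) had a median over found clones of 20 or more cells at least 25% above that over not found clones, and 10 (0.346%) at most 0.8 times. This count was made after the data were seen. The higher set held the stress keratin Krt16 (150.4 against 77.7 CPM), Ly6d (253 against 159), the spinous gene Krtdap (549 against 426), the barrier transcription factor Klf4 (80.8 against 63.1), its relative Klf6 (125 against 92.7) and the alarmin Il1a (83.4 against 66.0). Gsta4, a glutathione transferase (95.4 against 68.6 CPM), and Fst, the activin antagonist follistatin (162 against 124), were in it too. The lower set held Lor, the stress gene Nupr1 (103 against 139 CPM), the metallothionein Mt2 (373 against 470), Hes6 (65.1 against 84.4) and the mitotic kinesin Kif23 (58.7 against 73.7). The ratio of CPM over all cells for the same genes was closer to 1, at 1.03 for Krt16, 0.966 for Ly6d, 1.05 for Krtdap, 1.04 for Klf4, 1.11 for Klf6 and 0.946 for Kif23. Each of these 26 genes had overlapping clone ranges, such as 30.5 to 716 CPM and 28.5 to 603 CPM for Krt16. The not found medians rest on 13 clones of 340148 to 656481 UMIs, and the found ones on 33 clones of 292468 to 4377036 UMIs.

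The summed levels of gene lists differed little. In 22 lists with 3 or more members at 5 CPM or more, the ratio of summed CPM ran from 0.956 for interferon and MHC class I genes to 1.04 for simple epithelial keratins. Of 339 measured members, 2 were 25% or more higher and 5 at a ratio of 0.8 or less, where 0.361% and 0.493% of all 9130 genes at 5 CPM or more were. Both member shares were above those of all genes, on few members. A gene in 2 lists, such as Perp, counts in each. In 18 of the 22 lists no member passed either bound. Basal keratinocyte genes summed to a ratio of 1.02 (6 of 16 members above 1) and spinous genes to 1.02 (4 of 10 above 1), and in clones of 5 to 9 cells to 0.857 and 0.911. G1/S genes summed to 1.02 with 23 of 34 members above 1, and G2/M genes to 0.982 with 14 of 39 above 1, and in clones of 5 to 9 cells they were at 0.912 and 0.896. Aurka, a mitotic kinase, was the G2/M gene farthest from 1 at 59.9 and 64.5 CPM (0.930, 0.874 to 0.990). The median log2 ratio was 0.02 over G1/S and -0.03 over G2/M genes, beside -0.005 over all genes at 5 CPM or more. The last value puts the middle of all genes near a ratio of 1, the background for counts of members above 1.

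Cornified envelope genes had the most members past a bound. Of 14 measured members 12 were below 1, with a median log2 ratio of -0.08 beside -0.005 over all genes at 5 CPM or more. Sprr1a, Cnfn and Cdsn (corneodesmosin, 7.68 and 9.85 CPM, 0.780) were at 0.8 or less. The members are not independent, as 1 Tag231 cell held 21.1% of Sprr1a and 17.2% of Cnfn UMIs of not found clones. The list summed to 0.962 (0.9496 to 0.974), with 0.865 in clones of 2 to 4 cells, 0.810 in clones of 5 to 9, 0.744 in clones of 10 to 19 and 1.09 in clones of 20 or more. Sprr1b, its highest member, was at 514 and 524 CPM (0.981, 0.960 to 1.002). Summed per clone of 20 or more cells, the list ran from 879 through 1463 to 2050.2 CPM in found and from 938 through 1311 to 1779 CPM in not found clones.

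Inflammatory genes held both list members that were 25% or more higher, Ccl2 and Il33. Il33, an alarmin of barrier epithelia (GRCm38 19:29925114-29960718), stood at 8.42 CPM in found and 5.04 CPM in not found clones, a ratio of 1.67 (1.37 to 2.04) from 297 and 152 UMIs. It lay under the 10 CPM minimum of the main count and was picked after its values were seen. Without the top cell of each group its ratio was 1.63, without the 5 largest found clones 1.26, and with tags identical in full 1.03. In clones of 10 to 19 cells it was 0.361 and in clones of 20 or more cells 2.78. The list as a whole summed to 0.989 (0.981 to 0.997), and its most abundant member, the chemokine Cxcl5, was at 1474 and 1525 CPM (0.967, 0.955 to 0.979).

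Other groups gave ratios near 1. The interferon and MHC class I list had 1 of 7 members above 1, with H2-D1, a classical MHC class I chain, at 342 and 376 CPM (0.910, 0.887 to 0.934; reads may be shared with other class I genes; 1.33 in clones of 5 to 9 cells). Cholesterol synthesis genes summed to 0.968 with 6 of 22 above 1, NRF2 and oxidative stress genes to 0.971 with 5 of 17, and immediate early genes to 1.03 with 17 of 22. Fn1, fibronectin, had the highest ratio of the EMT list at 29.1 and 23.4 CPM (1.24, 1.13 to 1.37) but at 0.801 in clones of 2 to 4 cells, while the list summed to 0.998. Krt8, a simple epithelial keratin, was at 79.1 and 70.8 CPM (1.12, 1.06 to 1.18), with clones of 20 or more cells from 9.85 to 244 CPM in found and from 2.74 to 162 CPM in not found clones. Fas, a death receptor and p53 target, was at 6.097 and 7.70 CPM (0.792, 0.655 to 0.958), and the placental hormone gene Prl2c2, which has near-identical copies, at 5.78 and 7.46 CPM (0.775, 0.638 to 0.941).

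**Figure D5:**
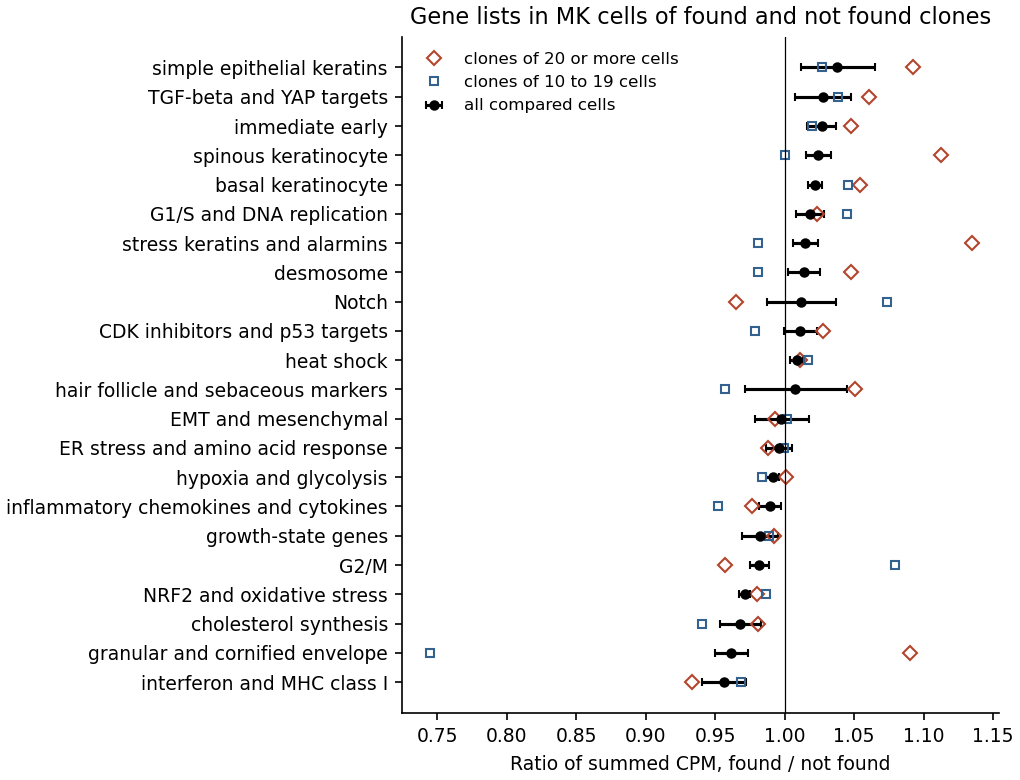
Ratio of summed CPM, found over not found, for 22 gene lists (black points with 95% counting intervals) and the same in clones of 20 or more cells (diamonds) and of 10 to 19 cells (squares). All black points lie between 0.956 and 1.04, and the cornified envelope list spans 0.744 to 1.09 between the size classes.

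Among the remaining genes with the highest ratios at 20 CPM or more were the RNA exosome subunit Exosc2 (1.20), the mitochondrial dehydrogenase Hibadh (1.17), the kinase Sik1 (1.16), the urea cycle enzyme Asl (1.15) and complement C3 (1.14). Among those with the lowest were the collagen lysyl hydroxylase Plod2 (0.819), the Y-linked translation factor subunit Eif2s3y (0.826), the nicotinamide riboside kinase Nmrk1 (0.831), adenosine deaminase Ada (0.858), the cyclooxygenase Ptgs1 (0.859) and the granulocyte growth factor Csf3 (0.861). With clones of 5 or more cells weighted equally, Eif2s3y (1.09), Nmrk1 (1.05), Ada (1.03) and Ptgs1 (1.02) were above 1, and in clones of 5 to 9 cells they were at 1.41, 1.35, 1.34 and 1.26. In clones of 2 to 4 cells, Asl was at 0.574 and Sik1 at 0.823, while Exosc2 and Hibadh were above 1 in every size class. Eif2s3y differed strongly between clones in both groups, from 1.27 through 21.8 to 52.6 CPM in found and from 0 through 19.7 to 54.9 CPM in not found clones of 20 or more cells. Plod2 ran from 2.54 through 17.2 to 88.7 CPM and from 5.88 through 10.9 to 108 CPM, so its found median was the higher one although its summed level was the lower. Csf3 was at 37.9 and 44.0 CPM, with a ratio of 1.31 in clones of 2 to 4 cells and 0.412 in clones of 10 to 19.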

How the data were processed

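RNA and tag matrices of MK and Diff_MK were used, 1 library each. They hold whole-number counts per gene or tag and cell barcode, deposited by the authors without normalization. The submitters' processing notes name Cell Ranger 6.1.2 and the build mm10. The labels and files do not give how tags were counted, or whether these are reads or UMIs. RNA depth was 116732898 UMIs for MK and 105961628 for Diff_MK. The entry named unmapped (18.2% and 10.1% of tag counts) was left out.

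Cells were joined on the first 16 bases of the barcode. UMIs were summed over the cells of a group and scaled to CPM. Ratios carry exact conditional binomial intervals and shares Clopper-Pearson intervals. Doublets were not removed. Leaving out cells in which a second tag held 10% or more of tag counts was an alternative. Shares of cells with a UMI used cells thinned to 7500 UMIs, and have no background from a cell type that lacks the gene, since the library holds 1 line.

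The members and gene lists were chosen with earlier results of these data known. Named genes are the 10 highest and 10 lowest ratios after adding 10 counts at 20 CPM or more (predicted, mitochondrial and ribosomal protein genes left out), the 6 highest and 6 lowest differences in median log2(CPM + 10) over clones of 10 or more cells, 2 members per list and 11 keratinocyte and cycle genes. Positions on GRCm38 come from the GENCODE vM21 annotation, which held 99.6% of the gene identifiers. The interval and calling steps were tested on simulated data with counting error only. The simulation held no clumping of UMIs in single cells or clones, so it does not show how the intervals cover such genes. Python 3.11.15, NumPy 2.4.6, SciPy 1.17.1 and pandas 2.3.3 were used. Leaving out the 5 largest found clones or the top cell of a gene were alternatives chosen after seeing the data.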

Additional observations from a re-analysis of the deposited data

Results flagged for a closer look

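Tags of 6 not found MK clones, with 51 MK cells in all, had counts in Diff_MK cells although none led a kept cell there. They are Tag71, Tag170, Tag67, Tag69, Tag119 and Tag148. Each had counts in 338 to 2132 Diff_MK cells, and the most in 1 cell ranged from 3 counts for Tag67 to 487 for Tag69. The other 411 not found clones had tags listed nowhere in the Diff_MK tag table.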

How the results depend on the processing

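The share of assigned MK cells in found clones was 49.3% and stayed within its interval under 4 of 10 alternatives. It was 45.7% when a tag had to hold 5 times the runner-up's counts, 46.1% with 3 or more Diff_MK cells per clone, 37.8% with tags identical in full, 42.1% without tags lacking inserted bases or a readable junction, 46.0% without the largest found clone and 39.9% without the 5 largest.

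The counts of genes past the bounds (6 higher, 5 lower) were 886 and 1000 with a minimum of 10 counts in place of 10 CPM, 1424 and 1458 in clones of 2 to 4 cells, 930 and 799 in clones of 5 to 9, 485 and 591 in clones of 10 to 19, and 151 and 134 in clones of 20 or more. They were 14 and 10 in clones of 5 or more cells, 40 and 43 with thinned cells, 79 and 66 with clones weighted equally, 11 and 19 without tags lacking inserted bases or a readable junction, and 1 and 2 at 1.5-fold. The lower count was 11 when a tag had to hold 5 times the runner-up's counts and 23 with single-cell clones added. Apart from the 1.5-fold bound and the added single-cell clones, these settings have fewer UMIs, genes of lower level or more weight on small clones.

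Among 16 named genes with a ratio past a bound, those that crossed 1 were, in clones of 2 to 4 cells, 2610002M06Rik 0.697, Adamtsl5 0.433, Ccl2 0.483, Frs2 0.635, Gm49890 1.12, Prl2c2 1.03, Cdsn 1.07, Il33 0 and Krt15 0 (no UMI in found cells). In clones of 5 to 9 cells they were Fas 1.07, Gm49890 1.04, Rnf152 1.26 and Krt15 0. In clones of 10 to 19 cells they were Ddit4 1.42, Rnf152 1.04, Il33 0.361 and Krt15 0.920, and in clones of 20 or more Cnfn 2.21, Prl2c2 1.02 and Sprr1a 4.54. Ccl2 was at 0.734 when a tag had to hold 5 times the runner-up's counts, 0.906 with 10 or more tag counts and 0.465 with tags identical in full. Krt15 was at 0.896 with clones weighted equally and 0.826 without the 5 largest found clones. The causes were not tested. Of the 75 named genes within the bounds, 43 crossed 1 in clones of 5 to 9 cells, 26 in clones of 2 to 4, 24 in clones of 10 to 19, 12 in clones of 20 or more and 26 with clones weighted equally. In the remaining alternatives 0 to 10 crossed. No paired analysis was possible because the labels give no replicate numbers and each group is 1 library.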
